A study of Malus domestica with 5 samples.

Results

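miR166 and miR394 are small RNA families with roles in the shoot apex, among other tissues. They were examined here in buds of apple (Malus domestica) on either side of the change from the juvenile to the reproductive phase. The members are the names in the deposited count table that begin with mdm-miR166 or mdm-miR394, which gave 11 of 207 named miRNAs: mdm-miR166a to mdm-miR166i (9 names), and mdm-miR394a with mdm-miR394b (2 names). Small RNAs were sequenced from 3 libraries of reproductive phase buds and from 2 libraries of juvenile phase buds. The juvenile tissue is labelled as sucker shoots of juvenile character taken at the base of the stem, so the groups differ in position on the tree as well as in phase, and phase and position cannot be told apart. The sources used here give no cultivar, tree age or treatment, and do not say that the replicates are separate trees. The p-values below thus rest on the spread among 5 libraries, and that spread may be technical.

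A plant miRNA guides an ARGONAUTE protein to messages of complementary sequence, which are cut or kept from translation. miR166 acts on messages of the HD-ZIP III transcription factors, which set the upper side of leaves, form vascular tissue and maintain the shoot meristem. In Arabidopsis, miR394 is made in the surface layer of the shoot meristem, moves inward, and represses the F-box gene LEAF CURLING RESPONSIVENESS, which keeps the cells below it competent as stem cells. The shoot meristem lies inside the bud. A copy letter in a miRNA name marks a genomic locus, and several loci can give the same mature miRNA. Of the 11 names, 8 match a miRNA gene in the RefSeq gene table of apple (6 of miR166 and 2 of miR394), and none of these 8 genes lies next to another of them.

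The 9 names from mdm-miR166a to mdm-miR166i carried the same count in every library, and so did mdm-miR394a and mdm-miR394b. The table therefore holds 2 distinct sets of counts for the 11 members, and the copies of a family cannot be told apart. No repeat and no candidate miRNA of the table had the counts of either family. Each family is counted once below unless stated otherwise. The counts of a library summed to 122455352 to 140173167 in the reproductive group and to 85087230 and 97283456 in the juvenile group, over 430043 features that are mostly numbered repeats (429395). The identical counts are what counting a read under each of its matches would give, but the handling of such reads is not stated, and the read depth is unknown. TMM, the scaling of edgeR that trims extreme features, gave the reproductive libraries a mean size 3.05-fold that of the juvenile ones, where the plain sums gave 1.41-fold.

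miR166 was the most abundant named miRNA in all 5 libraries, and miR394 ranked 5 in all of them. mdm-miR166a had 377714, 239048 and 224602 counts in reproductive replicates 1, 2 and 3, and 244447 and 227059 counts in juvenile replicates 1 and 2. These deposited counts overlap between the groups, and reproductive replicate 1 stands above all other libraries. After TMM scaling miR166 had 227049, 162076 and 143134 normalised counts in the reproductive libraries, against 415573 and 514229 in the juvenile ones. All 3 reproductive libraries then lie below both juvenile ones. A lower level in bulk tissue can be less RNA per cell or fewer cells of a type, which cannot be told apart. mdm-miR394a had 19482, 17814 and 18912 counts in the reproductive libraries and 15192 and 14530 in the juvenile ones. As deposited, its counts were thus higher in every reproductive library than in either juvenile one. After TMM scaling the order turned, with 11711, 12078 and 12052 normalised counts in the reproductive libraries, against 25827 and 32907 in the juvenile ones. The scaled reproductive values of miR394 lie close together, while the scaled juvenile pair is spread more widely. As deposited the order of spread was the other way, with an SD of 848 in reproductive and 468 in juvenile libraries.

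**Figure D1:**
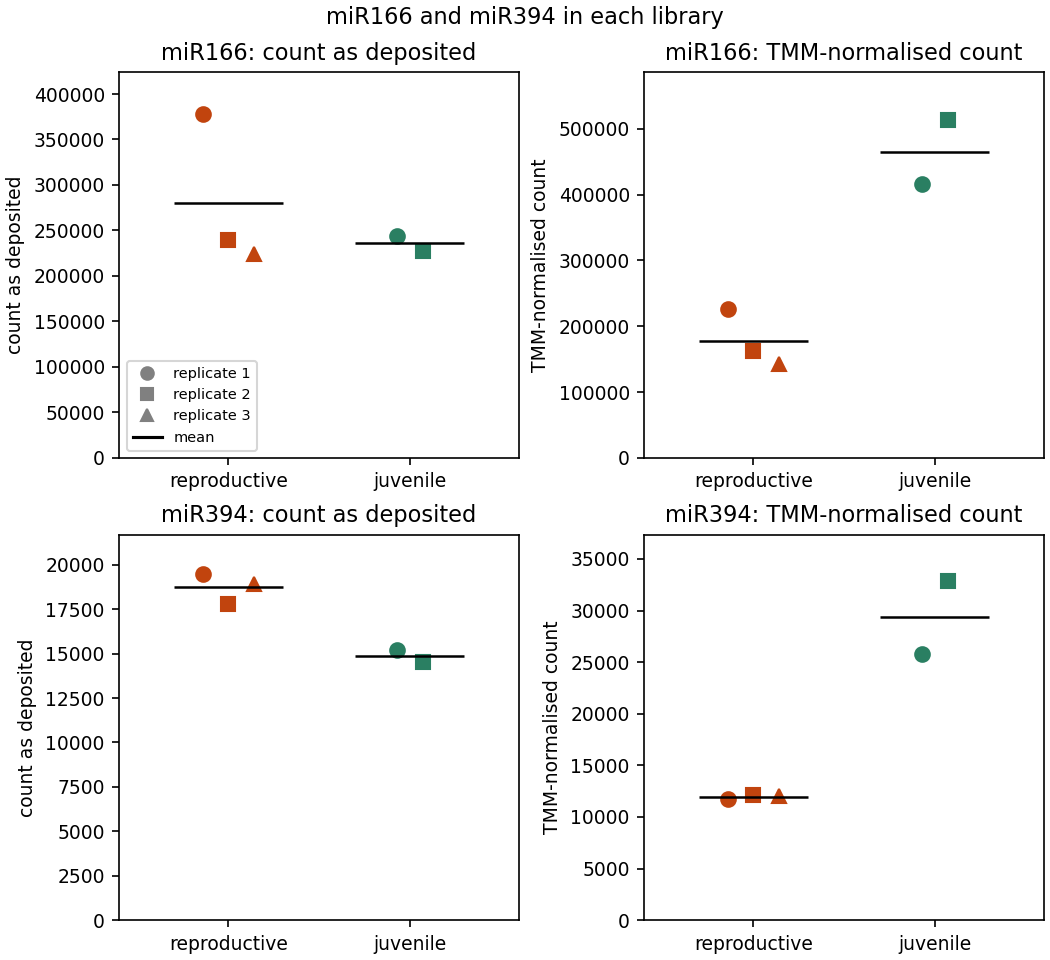
Counts of miR166 (top) and miR394 (bottom) in each library, as deposited (left) and after TMM scaling (right), with symbols for replicates and a bar for the group mean. After scaling, the 3 reproductive libraries lie below both juvenile libraries in each family, while the deposited counts of miR394 lie above them.

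Both families fell in the reproductive buds in the test over all features. miR166 averaged 177420 ± 44011 normalised counts in reproductive libraries (SD, n = 3) and 464901 ± 69760 in juvenile ones (SD, n = 2), a 2.62-fold decrease (log2 fold change -1.39, SE 0.19, edgeR quasi-likelihood test, Benjamini-Hochberg adjusted p = 1.6e-05). miR394 averaged 11947 ± 205 in reproductive libraries and 29367 ± 5006 in juvenile ones, a 2.46-fold decrease (log2 fold change -1.30, SE 0.11, edgeR adjusted p = 1.3e-07). Of the 282619 features in the same test, 24.3% were lower and 21.1% higher, and the normalised groups did not overlap for 33.0% of features with reproductive libraries lower and for 36.1% with reproductive libraries higher.

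The size of these changes depended on how the libraries were scaled, and the sign of the log2 fold change did not. The log2 fold change of miR166 was -1.27 with upper-quartile factors, -1.41 with DESeq2, -0.78 with TMM factors taken from the named miRNAs alone, and -0.26 with the sums of counts as library sizes. The corresponding values of miR394 were -1.18, -1.32, -0.68 and -0.16. With the sums, where the edgeR adjusted p was 0.049 for miR166 and 0.034 for miR394, 2.46% of all features were lower and 83.3% were higher. With TMM over the named miRNAs, 7.67% were lower and 55.4% were higher. As a share of the sums, miR166 overlapped between the groups. It held 0.270%, 0.195% and 0.182% in reproductive replicates 1, 2 and 3, against 0.251% and 0.267% in juvenile replicates 1 and 2. The share of miR394 in the sums did not overlap. The adjusted p with the sums are the highest of each family over 13 alternatives. The lowest were 5.4e-16 for miR166 (edgeR with the replicate number as a block) and 4.8e-32 for miR394 (DESeq2). In the block fit reproductive replicate 3 has no juvenile partner and does not enter the group comparison. The low p there rests mostly on the spread shared over features, and is no stronger sign of a fall. The median log2 fold change of all features moved with the scaling as well, and was 0.08 with TMM and 1.19 with the sums. A scaling adds nearly the same shift to every feature, so the distance to that median is the same by construction, and it was -1.47 for miR166 and -1.37 for miR394 with TMM.

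Within the named miRNAs, which need no scaling between libraries, miR166 held a smaller share in each reproductive library than in either juvenile one. Counting each of the 79 distinct sets of counts once, miR166 made up 51.6%, 45.0% and 43.1% of the named miRNA counts in the reproductive libraries, against 62.5% and 64.3% in the juvenile ones. The means were 46.6% ± 4.48 in reproductive (SD, n = 3) and 63.4% ± 1.25 in juvenile libraries (SD, n = 2), a difference of -16.78 percentage points (two-sided exact permutation p = 0.1, the smallest possible with 2 against 3 libraries, and 0.25 when adjusted by Benjamini-Hochberg over 5 such tests). miR394 made up 2.66%, 3.36% and 3.63% in the reproductive libraries and 3.88% and 4.11% in the juvenile ones. Its groups did not overlap either, and the difference of means was -0.78 percentage points (two-sided exact permutation p = 0.2, adjusted 0.25). The 95% Wilson intervals of these shares reach at most 0.16 percentage points to either side and cover counting error only. Neither share passed a threshold of 0.05, which this design cannot reach. With every member counted the miR166 difference was -9.03 percentage points, because its 9 names then held 78.95% to 83.7% of the counts in reproductive and 89.6% and 90.4% in juvenile libraries, and that of miR394 was -0.01. The miR394 groups then overlapped, with 0.96%, 1.33% and 1.48% in the reproductive and 1.24% and 1.29% in the juvenile libraries. With each set counted once, a share without overlap was not particular to these 2 families. Among the 5 most abundant sets, only miR482a-5p overlapped between the groups. How many of the 79 sets did not overlap was not counted.

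Of the 3 other miRNAs among the 5 most abundant, the set shared by miR319a and miR319b, which target TCP transcription factors of leaf growth, had the largest gain in share. It made up 22.8%, 21.1% and 23.6% in the reproductive libraries, against 9.04% and 8.58% in the juvenile ones. miR159a and miR159b, which target GAMYB-like genes, share a set that made up 5.89%, 6.88% and 7.20% in the reproductive libraries, against 5.58% and 5.62% in the juvenile ones. miR482a-5p, from the opposite arm to the miRNA that targets NBS-LRR resistance genes, made up 8.15%, 13.4% and 12.6% in the reproductive libraries, against 9.36% and 9.52% in the juvenile ones. Reproductive replicate 1, the library with the highest miR166 share of its group, had the lowest share of its group for miR159 and miR482a-5p, and also the lowest for miR394.

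**Figure D2:**
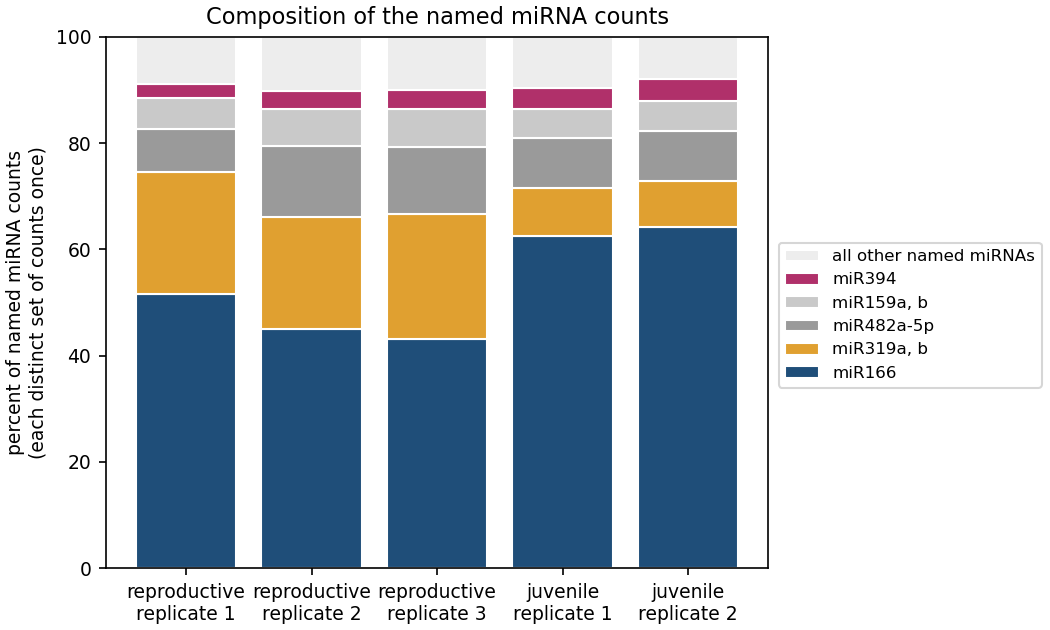
Percent of the named miRNA counts in each library held by the 5 most abundant distinct sets of counts and by all others, as stacked bars. The miR166 part spans 43.1% to 51.6% in the reproductive libraries and 62.5% to 64.3% in the juvenile ones, and that of miR319a and miR319b 21.1% to 23.6% in the reproductive and 8.58% to 9.04% in the juvenile ones.

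The quotient of miR166 over miR394 asks whether the families changed by different amounts. It was 19.4, 13.4 and 11.9 in reproductive replicates 1, 2 and 3, and 16.1 and 15.6 in the juvenile libraries. The reproductive values lie on both sides of the juvenile pair. The fold difference was 0.92, reproductive over juvenile, or -0.12 on the log2 scale (two-sided exact permutation p = 0.7, adjusted 0.70). With 2 against 3 libraries this test cannot reach 0.05 for a difference of any size. This value rests on single reproductive libraries: it was -0.33 without reproductive replicate 1, -0.06 without reproductive replicate 2 and 0.02 without reproductive replicate 3.

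Repeats of similar abundance had larger decreases than miR166. Within 2-fold of its mean level of 2614 CPM, a count relative to the TMM-scaled library size, there were 47 distinct repeats, and all 47 were called lower in the edgeR test, where 24.3% of all features were. Their log2 fold changes had a median of -1.92 and ran from -2.49 to -1.46, so that all 47 lay below the -1.39 of miR166. Distinct repeats differ in at least 1 count, yet some were near copies, such as a pair at 2504 and 2505 CPM, both at -2.23. The 47 may share reads and need not be independent. As deposited, the median count of these repeats was 243793, 240724 and 209129 in the reproductive libraries and 277373 and 260418 in the juvenile ones. The count of miR166 over that median, a quotient without library scaling, was 1.55, 0.993 and 1.07 in the reproductive libraries and 0.881 and 0.872 in the juvenile ones. All reproductive values lie above the juvenile ones, by 1.35-fold on average (log2 difference 0.43, two-sided exact permutation p = 0.2, adjusted 0.25). The repeat nearest in abundance, repeat_1289154, fell 4.35-fold in the edgeR test, with 228406, 199339 and 181444 counts in the reproductive libraries and 294404 and 275675 in the juvenile ones. It lies below miR166 in every reproductive library and above it in both juvenile ones.

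miR394 lay within the range of the repeats around it. Of 39 distinct repeats within 2-fold of its mean level of 169 TMM-scaled CPM, all 39 were called lower, with a median log2 fold change of -1.56 and a range from -2.24 to -0.51. Of these, 28 lay below the -1.30 of miR394 and 11 above it. As around miR166, these repeats may share reads and need not be independent. The count of miR394 over the median count of these repeats was 1.32, 1.32 and 1.43 in the reproductive libraries and 1.24 and 1.28 in the juvenile ones. The reproductive values were all higher, by 1.076-fold on average (log2 difference 0.10, two-sided exact permutation p = 0.1, adjusted 0.25). That direction turned with a 4-fold window, which took in 375 distinct repeats with a median of -1.0 and gave a log2 difference of -0.28, and the value was 0.03 without juvenile replicate 1 and 0.05 with repeats of identical counts each counted. The nearest repeat, repeat_1254620, fell 2.56-fold in the edgeR test, close to the 2.46-fold of miR394, with 16825, 18287 and 17721 counts in the reproductive libraries and 15233 and 14046 in the juvenile ones.

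Across all distinct repeats tested, the share called lower in the edgeR test grew with abundance. It was 11.7% of 127107 repeats at 0.1 to 1 TMM-scaled CPM, 43.7% of 91047 at 1 to 10, and 89.4% of 7611 at 10 to 100. All 74 repeats at 100 to 1000, where miR394 lies, and all 93 above 1000, where miR166 lies, were called lower. Distinct repeats may share reads here too, so these need not be counts of independent features. The median log2 fold change of these classes was 0.25, -0.22, -0.72, -1.60 and -1.80 in the same order. The part of abundance in the decrease of miR166 and miR394 was not tested.

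**Figure D3:**
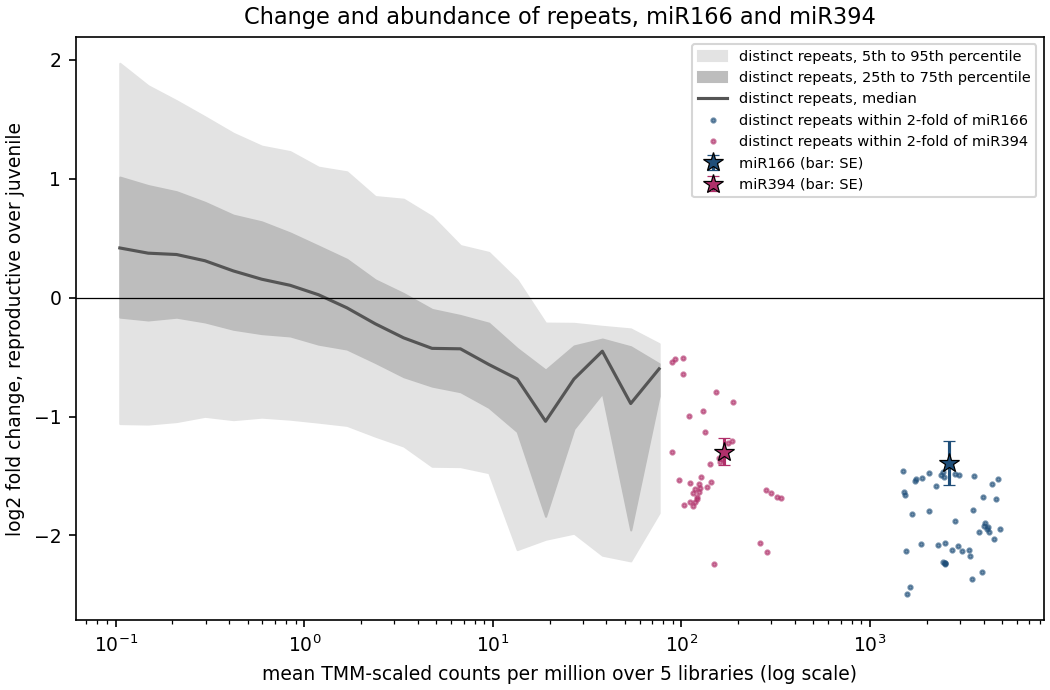
Log2 fold change (reproductive over juvenile, TMM) against mean abundance on a log axis. Grey bands and line give percentiles of distinct repeats per abundance class below 100 CPM, dots are single distinct repeats within 2-fold of miR166 or miR394, and stars are the families with their SE. The star of miR166 at -1.39 lies above all 47 repeats around it, and that of miR394 at -1.30 lies above 28 and below 11 of its 39.

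**Figure D4:**
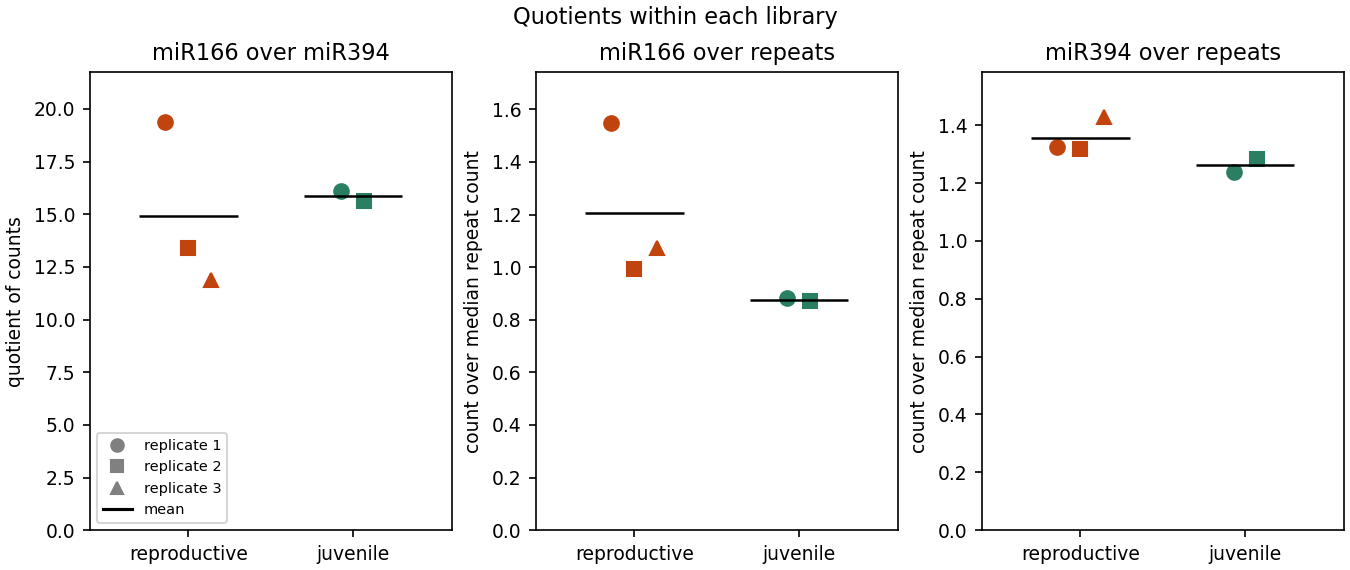
Quotients within each library: miR166 over miR394, and each family over the median count of the distinct repeats within 2-fold of its abundance, with symbols for replicates and a bar for the group mean. The reproductive libraries lie on both sides of the juvenile ones for miR166 over miR394, and above them in the other panels.

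Other miRNA families with a role in meristem, organ boundary or leaf development were set beside miR166 and miR394, on a list chosen with earlier results of these data known. The families miR164, miR171, miR319, miR390 and miR396 hold 16 distinct sets of counts, all of which had enough counts to be tested. Of these 16, 6 rose, 1 fell and 9 did not pass in the edgeR test, with a median log2 fold change of 0.14, beside 21.1% higher, 24.3% lower and a median of 0.08 over all features. Of the 64 distinct sets of all named miRNAs tested, 16 were higher and 23 lower, with a median of -0.15. The count of higher sets on the list depended on the setting: it was 14 with the sums and 10 with TMM over the named miRNAs, with 0 lower in both, and 3 without juvenile replicate 2. The set shared by miR164b to miR164f, which target the CUC-type boundary genes, rose (log2 fold change 0.94, SE 0.19, edgeR adjusted p = 0.00069). Of 7 sets of miR171, which targets GRAS genes of the meristem, with TMM miR171i alone rose (log2 fold change 1.52, SE 0.21, edgeR adjusted p = 2.2e-05). By contrast, the more abundant miR171a and miR171b did not pass at -0.35 (SE 0.14). They were called lower without reproductive replicate 1 (-0.55) and with no minimum of counts (-0.31), and were called higher with the sums (0.76). With the sums miR171c to miR171e, miR171g and miR171h, and miR171j to miR171l were also called higher, and the first of these sets also with TMM over the named miRNAs (0.68). Both sets of miR319 rose, by 0.40 (SE 0.14, edgeR adjusted p = 0.034) for miR319a and miR319b and by 2.63 (SE 0.22, edgeR adjusted p = 8.2e-08) for miR319c. The call of miR319a and miR319b ended without reproductive replicate 1 (0.27) or 2 (0.47) and without juvenile replicate 1 (0.30) or 2 (0.49). miR390, which starts the trans-acting siRNAs of leaf polarity, lay at -0.01 (SE 0.13), and was called higher with the sums (1.09, edgeR adjusted p = 3.4e-05) and with TMM over the named miRNAs (0.58, edgeR adjusted p = 0.0059). Of 4 sets of miR396, which targets growth-regulating factors, miR396a (log2 fold change 0.72, SE 0.19) and miR396b (0.49, SE 0.13) rose, calls that ended without juvenile replicate 2 (0.48 and 0.31). The most abundant set, miR396c to miR396e, did not pass at 0.19 (SE 0.14). It was called higher with the sums (1.29) and with TMM over the named miRNAs (0.78). The set of miR396f and miR396g fell (log2 fold change -0.29, SE 0.09, edgeR adjusted p = 0.019), but was higher with the sums (0.83) and with TMM over the named miRNAs (0.31). The lower call ended with upper-quartile factors (-0.17) and with the replicate number as a block (-0.24). That call also ended without reproductive replicate 2 (-0.30) or 3 (-0.23) and without juvenile replicate 1 (-0.20). Over the 5 scalings 9 of the 16 sets were higher in each and 7 changed direction, which follows from the nearly constant shift that a scaling adds to every feature.

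**Figure D5:**
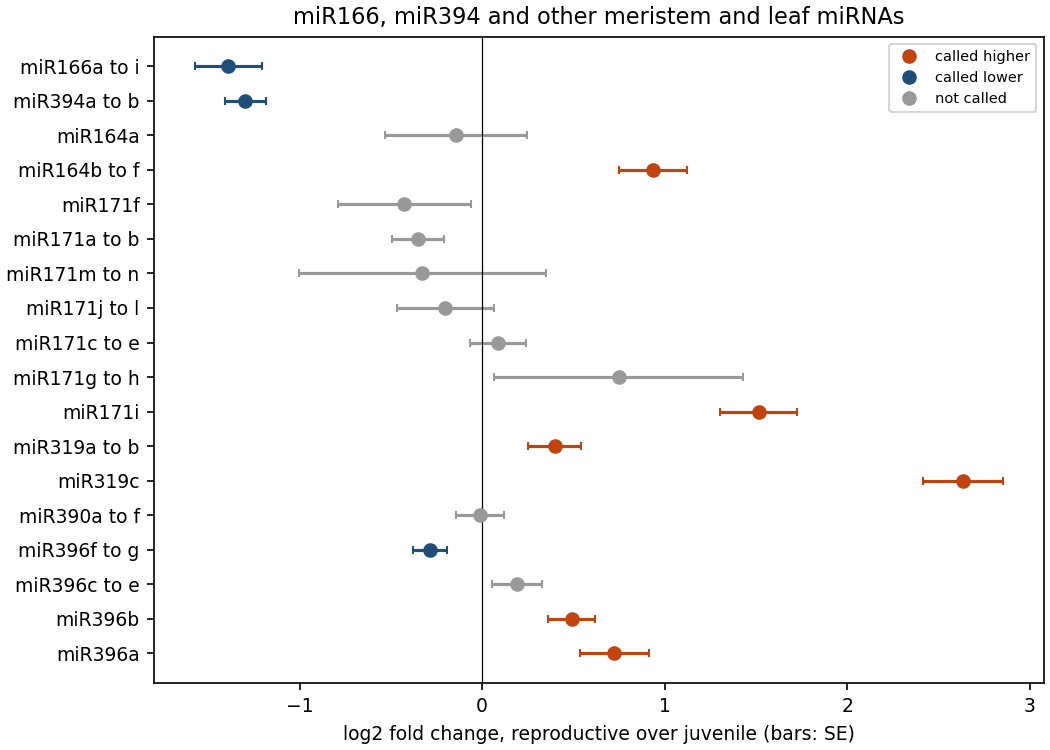
Log2 fold changes (reproductive over juvenile, TMM) with SE for miR166, miR394 and the 16 distinct sets of counts of miR164, miR171, miR319, miR390 and miR396, coloured by the call of the edgeR test. miR166 at -1.39 and miR394 at -1.30 lie below all 16 sets, of which the lowest, miR171f, is at -0.43 and was not called. The direction of 7 of the 16 sets, among them miR396f and miR396g, which were called lower, depended on the scaling.

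Within a library, miR166 and miR394 both stood lower relative to the most abundant set of each of these families in the reproductive buds. For miR396, the most abundant set (miR396c to miR396e) was outnumbered by miR166 33.1-fold, 27.9-fold and 29.6-fold in the reproductive libraries, against 72.2-fold and 115-fold in the juvenile ones. Against miR164b to miR164f, miR166 stood 2020-fold, 1532-fold and 1164-fold higher in the reproductive libraries and 7639-fold and 7830-fold higher in the juvenile ones. miR394 stood 104-fold, 114-fold and 98.0-fold above miR164b to miR164f in the reproductive libraries, against 475-fold and 501-fold in the juvenile ones. None of these quotients overlapped between the groups, and none was tested. The less abundant sets of these families were not compared. Against both sets of miR7121, miR482c, and miR168a with miR168b, the quotients of miR166 and of miR394 did overlap. How many of all features would give no overlap was not counted. With TMM, miR166 and miR394 lay at -1.47 and -1.37 from the median log2 fold change of all features. Their mean quotient over a feature near that median is thus lower too, and a lower quotient is not particular to the listed families.

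The named miRNAs whose profile over the 5 libraries was most like that of miR166 were both sets of miR7121 and miR482c. Likeness was the root mean square difference of log2 counts after centring, over 44 other distinct miRNAs with at least 10 counts in every library. It was 0.14 for miR7121d to miR7121h, 0.17 for miR7121a to miR7121c and 0.17 for miR482c, which targets NBS-LRR resistance genes. For miR394 the nearest were miR168a and miR168b, which target ARGONAUTE1, at 0.09, then miR858, which targets MYB genes, at 0.13, and miR7121d to miR7121h at 0.15. The difference between miR166 and miR394 themselves was 0.24, and 5 other miRNAs lay nearer to miR166 and 7 nearer to miR394. Among these nearest sets, miR7121, miR482c and miR168 were lower in all 5 scalings, while miR858 (log2 fold change -1.04) stood at 0.09 with the sums.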

How the data were processed

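The authors deposited whole-number counts per feature, with no normalization, in 1 table of 5 libraries. Small RNAs were gel-purified, ligated to adapters and amplified per the labels' protocols, and the submitters' processing notes name Bowtie 1.1.2. Genome build, allowed mismatches and the handling of multiple matches: not given in the sources used here. Columns were matched to sample titles by initials and replicate number. Features reaching 10 counts in 2 or more libraries were tested in R 4.3.3 with edgeR 4.0.16 (quasi-likelihood test, TMM, group as the only term, Benjamini-Hochberg over all features, threshold 0.05), and DESeq2 1.42.0 was an alternative. The test was checked on simulated data in which few features changed, evenly up and down. That is no check of the scaling under the many changes called here. SE is the log2 fold change divided by the square root of F. Normalised counts are scaled to a geometric mean library factor of 1. Exact permutation tests enumerated the splits of 2 against 3 libraries by absolute difference of means (Python 3.11.15). Named features are the members, the 5 most abundant named miRNAs, the 5 listed families, the 3 nearest profiles per family, and the repeat nearest in abundance to each family, chosen after its values were seen. The members and lists were chosen with earlier results of these data known. Sequences are not printed here.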

Additional observations from a re-analysis of the deposited data

How the results depend on the processing

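The decreases of miR166 and miR394 kept their direction and passed the threshold in all 13 alternatives each, with log2 fold changes from -1.59 to -0.26 and from -1.46 to -0.16. As a share of the sums, however, miR166 overlapped between the groups. With 1 library left out the log2 fold changes ran from -1.59 to -1.23 for miR166 and from -1.46 to -1.11 for miR394. A lone juvenile library was there assumed to vary like the others. The shares of named miRNA counts kept their direction with 1 library left out. Their differences ran from -19.3 to -15.0 percentage points for miR166 and from -0.99 to -0.51 for miR394. With every member counted the miR394 difference all but vanished (-0.01), and its groups overlapped. The quotient of miR166 over miR394 ran from -0.33 to 0.025 on the log2 scale with 1 library left out. It turned without reproductive replicate 3. The replicate block gave the same 0.025, because that library has no juvenile partner and drops out of the block comparison. miR394 over repeats of similar abundance turned with the 4-fold window (-0.28) and ran from 0.03 to 0.16 with 1 library left out, and that of miR166 from 0.39 to 0.56. The 1 set of the meristem and leaf list called lower went to 0 under the sums, TMM over named miRNAs and the replicate block. It went to 0 to 2 with 1 reproductive library left out. With no minimum of counts, the set of miR171a and miR171b (-0.31) was called lower beside that of miR396f and miR396g (-0.25). The 6 sets called higher became 14 under the sums and 10 under TMM over named miRNAs, and 3 to 6 with 1 library left out. The labels do not say whether libraries of the same replicate number were paired. The correlation of same-numbered deviations was -0.12 and -0.02. With 2 juvenile libraries these values are not separate checks, and they cannot show whether a batch was shared. With the replicate number as a block, calls over all features were 46749 higher and 55391 lower, against 59564 and 68585 without it, and miR166 and miR394 had log2 fold changes of -1.27 and -1.29. In these fits too, reproductive replicate 3 has no juvenile partner and does not enter the group comparison. The cause of these shifts was not otherwise tested. The unknown read depth and the 2 juvenile libraries limit the precision.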
